A study of Mus musculus with 6 samples.

Results

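The BTB zinc finger factors are proteins that carry an N-terminal BTB domain and a C-terminal array of zinc fingers. The 8 genes described here are Zbtb16, Zbtb1, Zbtb7a, Zbtb7b, Zbtb17, Zbtb20, Zbtb32 and Bcl6. They were taken by symbol from the deposited gene annotation, where all 8 were present among 28048 genes. In each sample, the RNA molecules of a gene, counted by unique molecular identifiers (UMIs), were summed over the filtered cells, over each reverse-transcription well and over cell groups defined by marker genes.

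The samples were cultures of bone marrow-derived T-cell progenitors from the mouse. WT mice (C57BL/6, Bcl11b YFP/YFP) carried a yellow fluorescent protein reporter on both copies of Bcl11b, the gene for a factor needed for commitment to the T lineage. ΔTE mice (Bcl11b YFPΔEnh/YFPΔEnh) carried the same reporter and lacked the Bcl11b timing enhancer on both copies, so neither genotype was free of the reporter. CD117-enriched bone marrow of adult mice of both sexes was pooled within a genotype and grown on OP9-DL1, a stromal line that presents a Notch ligand. CD44+ cells were then sorted into DN1, without CD25, and the CD25+ stages DN2a and DN2b, which lacked or carried the Bcl11b reporter signal, and were re-cultured on OP9-DL1 for 4 days in medium with the cytokines used for T cells, innate lymphoid cells (ILCs) and natural killer (NK) cells. The 6 libraries, WT and ΔTE from each of the 3 starts, were profiled by sci-RNA-seq3, a combinatorial indexing method. The labels give the molecule as nuclear RNA, and the methods describe fixed cells. Each condition was 1 library, so no difference between conditions was tested, and the 3 wells of a library are read as technical parts of it. Whether they hold cells of 1 dish or of several is not given in the sources used here.

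BTB zinc finger factors bind DNA through their zinc fingers and, for many of them, recruit corepressors such as BCOR through the BTB domain. Several of them act at lymphoid branch points. PLZF, encoded by Zbtb16, marks ILC precursors and innate-like T cells, while Bcl6 and ThPOK (encoded by Zbtb7b) direct fates of mature T cells.

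Barcodes with 200 genes or more, no more than 2000 UMIs and a mitochondrial share of up to 30% were taken as cells. The libraries held between 3401 and 19489 cells and between 1717136 and 9048728 UMIs, 60671 cells in all. The median cell had between 386 and 485 UMIs. No barcode was shared between libraries (0 of all kept cells). The WT DN2a library stood apart, with a median of 13.3% mitochondrial UMIs against 20.9% to 23.9% in the other libraries and 9.28% of its cells in the stroma marker group against 1.53% to 5.99%. Levels are given as CPM, the UMIs of a gene per 1000000 UMIs of the summed cells, with exact Poisson 95% intervals, which cover counting error only. A gene was counted as higher or lower between 2 libraries when both together held at least 100 UMIs on it, the change passed 1.2-fold and the 3 wells of each library did not overlap. In these sums, more RNA per cell and more cells that express a gene cannot be told apart.

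Zbtb16 was the member with the largest difference between genotypes that met this criterion, and it was higher in ΔTE cultures from all 3 starts. The DN1-derived WT cells held 266 CPM (253 to 279), and their ΔTE counterparts 391 CPM (375 to 408). Among DN2a-derived cells the WT level was 239 CPM (229 to 250) and the ΔTE level 485 CPM (468 to 502). Among DN2b-derived cells WT gave 199 CPM (183 to 217), where ΔTE gave 419 CPM (389 to 451). Every ΔTE well lay above every WT well of any start. The lowest ΔTE well held 281 CPM and the highest WT well 275 CPM.

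**Figure D1:**
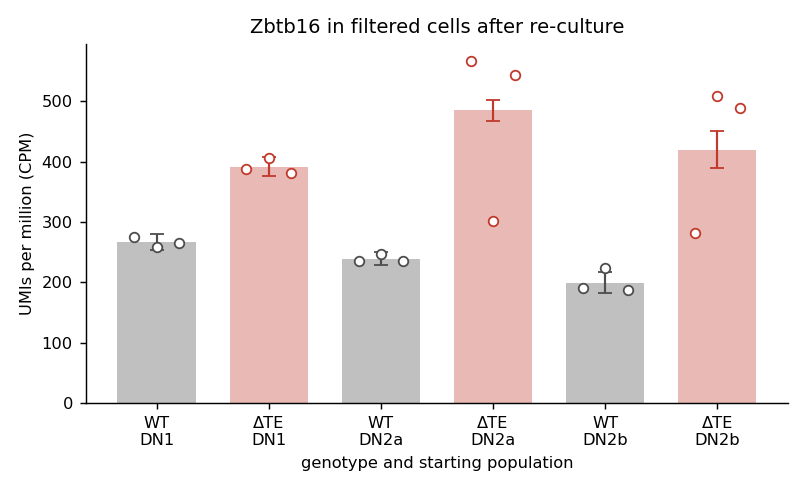
Zbtb16 level in CPM (y axis) for each genotype and starting population (x axis). Bars are the summed library, error bars are exact Poisson 95% intervals and open circles are the 3 wells. All WT wells lie between 188 and 275 CPM and all ΔTE wells between 281 and 566 CPM.

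On the log2 scale, ΔTE exceeded WT by 0.56 (0.46 to 0.65) for the DN1 start, a 1.47-fold difference. It was 1.02 (0.94 to 1.10) for the DN2a start, or 2.03-fold, and 1.07 (0.91 to 1.24) for the DN2b start, or 2.11-fold. The intervals of the DN2a and DN2b ratios did not overlap that of the DN1 ratio, but the difference between starts has no replicate behind it and was not tested. Of all genes with enough UMIs, 4.45% were counted as higher and 4.17% as lower in ΔTE cells of the DN1 start. The shares were 2.07% and 11.5% for the DN2a start and 6.78% and 7.62% for the DN2b start. For the DN2a start the median gene lay at −0.14 on the log2 scale. With mitochondrial UMIs left out of the scaling the median moved to −0.01, and the share of calls that were higher rose from 15.2% to 43.9% (47.7% with TMM scaling). The Zbtb16 ratio for that start was 1.14 without mitochondrial UMIs and 1.15 with TMM.

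The wells of the ΔTE libraries were not alike. In the ΔTE DN2a library, wells B01 and B03 held 566 and 543 CPM of Zbtb16, and well B02 held 302 CPM. Well B02 had 13.1% of its cells in the stroma marker group, against 2.78% and 1.72% in B01 and B03. Without those cells its level was 368 CPM, against 579 and 551 CPM. Bcl11b was also lower there, at 185 CPM against 283 and 288 CPM. In the ΔTE DN2b library, well B04 held 281 CPM of Zbtb16 against 508 and 488 CPM in B05 and B06. Its share of stroma marker cells was 2.57%, against 0.776% and 1.01%. Without those cells its level was 292 CPM, against 511 and 488 CPM. The part of these cells in the spread between wells was not tested further. Leaving out 1 well at a time gave log2 ratios from 0.79 to 1.22 for the DN2a start and from 0.93 to 1.32 for the DN2b start.

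Between starts, Zbtb16 fell in WT cultures from the DN2a to the DN2b start, with a log2 ratio of −0.27 (−0.40 to −0.13) and wells that did not overlap. That call was lost when the scaling left out mitochondrial UMIs (−0.12) or used TMM (−0.09), and the sign turned with a limit of 20% mitochondrial UMIs (0.12). It was also lost with at most 2000 genes, without cells of 2 marker classes, without well A05 of the WT DN2a library (−0.24) or without well A07 (−0.25) or A09 (−0.19) of the WT DN2b library. WT DN2a wells lay below WT DN1 wells by −0.15 (−0.25 to −0.06), which is short of 1.2-fold. In ΔTE cultures the ratio of the DN2a to the DN1 start was 0.31 (0.23 to 0.39) and that of the DN2b to the DN2a start was −0.21 (−0.33 to −0.09), each with overlapping wells. The second was −0.41, with wells apart, without well B02, and turned to 0.020 without well B01 and to 0.038 without well B04. These comparisons share libraries with each other and with those between genotypes.

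More cells gave a Zbtb16 UMI in ΔTE cultures, and the cells that did gave slightly more. Cells outside the stroma group were thinned to 300 UMIs, and shallower cells were left out. That removed 1253, 4494 and 546 WT cells of the DN1, DN2a and DN2b starts and 1001, 1437 and 457 ΔTE cells, an unequal loss that was greatest in the WT DN2a library. Among thinned cells, 6.91% of WT cells of the DN1 start had a Zbtb16 UMI, against 10.5% of ΔTE cells. The shares were 6.80% and 12.5% for the DN2a start and 4.74% and 10.4% for the DN2b start. Unthinned, the shares were 11.6% and 16.8%, 9.30% and 19.4%, and 8.30% and 14.7%, at median depths from 377 to 485 UMIs. Thinned cells with a UMI held on average 1.14 to 1.17 Zbtb16 UMIs in WT and 1.18 to 1.26 in ΔTE libraries. In the stroma marker group, read as the background level, 0% to 4.00% of thinned cells had a UMI. The counts ran from 0 of 237 cells in the WT DN1 library to 6 of 150 in the ΔTE DN1 library. Unthinned, the stroma shares were 1.84% to 5.77%, at median depths from 504 to 693 UMIs. The 0 of 237 thinned cells allow a share of up to 1.54% (exact 95% limit). All shares outside the stroma group lay above the stroma share of their own library.

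Zbtb16 was then followed in cells with and without a Bcl11b UMI, outside the stroma group, since the enhancer deletion acts on Bcl11b. In cultures from the DN2a and DN2b starts, Zbtb16 was lower in cells with a Bcl11b UMI. The log2 ratio of cells with to cells without was −0.31 (−0.47 to −0.15) for WT and −0.51 (−0.68 to −0.34) for ΔTE cells of the DN2a start. For the DN2b start it was −0.26 (−0.53 to 0.00) for WT and −0.91 (−1.23 to −0.60) for ΔTE cells. From the DN1 start the sign was the opposite, with 0.16 (−0.06 to 0.37) for WT and 0.34 (0.08 to 0.58) for ΔTE cells.

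**Figure D2:**
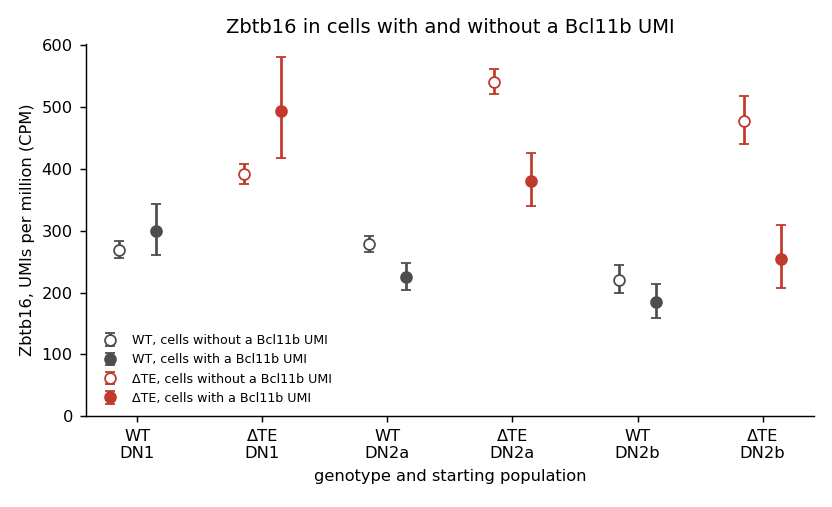
Zbtb16 level in CPM (y axis) in cells with (filled) and without (open) a Bcl11b UMI, outside the stroma marker group, for each genotype and starting population (x axis). Error bars are exact Poisson 95% intervals. In ΔTE cells of the DN2b start the level was 255 CPM with and 478 CPM without a Bcl11b UMI.

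Among cells with a Bcl11b UMI, the genotype ratio of Zbtb16 was 0.72 (0.40 to 1.03) in DN1-derived, 0.76 (0.54 to 0.98) in DN2a-derived and 0.46 (0.10 to 0.82) in DN2b-derived cells. Among cells without it, the ratio was 0.54, 0.96 and 1.11. Zbtb16 was thus higher in ΔTE than in WT cells on both sides of the split. Cells with a Bcl11b UMI were deeper, with medians of 435 to 567 UMIs against 366 to 481 UMIs, and the part of depth in the split was not tested. A cell without a Bcl11b UMI may still express the gene at this depth. Bcl11b itself was lower in ΔTE than in WT cells from each start, at 89.3 against 235 CPM (DN1), 256 against 534 CPM (DN2a) and 539 against 856 CPM (DN2b).

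Cells were placed in a marker group when they held UMIs of at least 2 different markers of a class and more than of any other class. This took 7507 cells as ILC or NK, 3127 as stroma, 1529 as progenitor, 726 as myeloid and 504 as T marker cells, and left 47278 cells in no class. The ILC or NK group rested mainly on Gzma, seen in 75.8% of its cells but also in 23.3% of cells of no class, and on Nkg7, in 54.3%. The cytokines of group 2 ILCs were near 0 in all cells, with 2 UMIs of Il5 and 19 of Il13. The group is therefore called by its markers and not taken as mature ILCs. Of the T markers, Trbc1, Trbc2 and Trac were not analysed here and Cd8b1 had 0 UMIs, so the T group rests mainly on Cd3g, Cd3d and Cd3e. The stroma group held Col1a2 in 83.3% of its cells. The median ILC or NK marker cell had 573 UMIs, against 409 in cells of no class.

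Summed over the 6 libraries, Zbtb16 was at 466 CPM (447 to 485) in ILC or NK marker cells, 332 CPM (325 to 340) in cells of no class, 246 CPM (217 to 278) in progenitor marker cells and 184 CPM (147 to 228) in myeloid marker cells. It was at 80.9 CPM (51.8 to 120) in T marker cells and 61.1 CPM (51.0 to 72.6) in stroma marker cells, and the intervals of these last groups overlapped, as did those of the progenitor and myeloid groups. These sums mix libraries of unequal share, since 361 and 274 of the 726 myeloid marker cells came from the WT and ΔTE DN1 libraries and 362 of the 504 T marker cells from WT. Within libraries with enough UMIs, Zbtb16 was lower than in cells of no class in 4 of 4 libraries for T, 4 of 5 for progenitor and 2 of 4 for myeloid marker cells, so the place of the myeloid group in this order did not hold within libraries. In ILC or NK marker cells Zbtb16 was higher than in cells of no class in 6 of 6 libraries, by 0.43 ± 0.14 (SD, n = 6) on the log2(CPM + 10) scale. In stroma marker cells it was lower in 6 of 6 libraries, by −2.16 ± 0.31. An exact two-sided sign-flip permutation test over the 6 libraries gave p = 0.03125 for each, the smallest it can give, and 0.0729 after Benjamini-Hochberg adjustment over 14 tests. The 6 libraries are different conditions, from marrow pooled within a genotype, and are not independent replicates. The test, here and for the genes below, therefore describes only how alike the direction was over these libraries. Without its 5 most counted markers (Gzma, Nkg7, Gzmb, Il12rb2 and Il17rb) the ILC or NK group shrank to 222 cells, and Zbtb16 was at 1023 CPM (855 to 1214) there, a setting chosen after seeing the data.

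**Figure D3:**
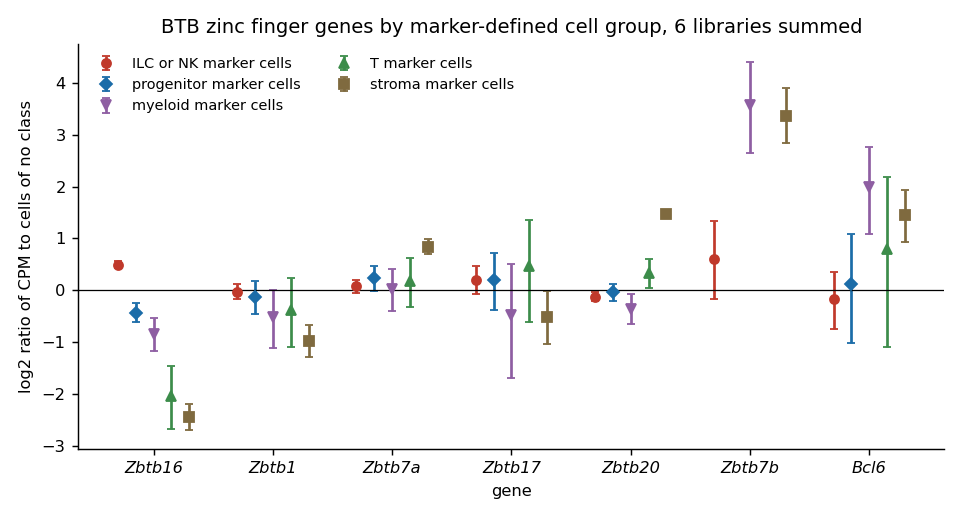
The log2 ratio of CPM to cells of no class (y axis) for 7 genes (x axis) in 5 marker-defined groups, summed over the 6 libraries, with exact 95% intervals. Values resting on fewer than 3 UMIs in the group are left out. Zbtb16 is high in ILC or NK and low in T and stroma marker cells, while Zbtb20, Zbtb7a, Zbtb7b and Bcl6 are high in stroma marker cells.

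The genotype difference of Zbtb16 was read inside these groups, and both large ones showed it. In ILC or NK marker cells ΔTE exceeded WT by 0.59 (0.37 to 0.81) for DN1, 1.08 (0.90 to 1.26) for DN2a and 0.97 (0.64 to 1.31) for DN2b on the log2 scale. In cells of no class it was 0.50 (0.39 to 0.61), 0.88 (0.79 to 0.97) and 1.01 (0.82 to 1.21). The small groups were not uniform. In progenitor marker cells the ratio was 0.23 (−0.25 to 0.70) for DN1, 1.42 (0.79 to 2.08) for DN2a and −0.16 (−2.63 to 1.73) for DN2b, the last on 3 ΔTE and 12 WT UMIs. Myeloid marker cells gave 0.82 (0.045 to 1.62) for DN1 and 0.97 (−0.48 to 2.62) for DN2a. In T marker cells the ratio was 0.051 (−2.08 to 1.84) for DN2a and −0.69 (−3.99 to 1.70) for DN2b, on 4 and 2 ΔTE UMIs, so a difference was not detectable there at this depth. The ILC or NK group itself was larger in ΔTE libraries, at 12.2%, 16.8% and 17.3% of cells against 9.60%, 11.0% and 10.5% in WT libraries. With that whole group left out the Zbtb16 ratios were 0.53, 0.95 and 1.04, and with the stroma group left out they were 0.54, 0.96 and 1.04.

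The remaining 7 members were compared in the same way. Of the 8 members, 6 had enough UMIs for the DN1 and DN2a starts and 5 for the DN2b start. Zbtb16 was counted as higher from each start. Zbtb7a and Zbtb20 were counted as lower for the DN2a start, where 11.5% of all genes were lower and 2.07% higher, and no other member met the criterion between genotypes. The median log2 ratio of the members with enough UMIs was −0.03, −0.25 and −0.18, beside 0.00, −0.14 and −0.01 over all genes.

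**Figure D4:**
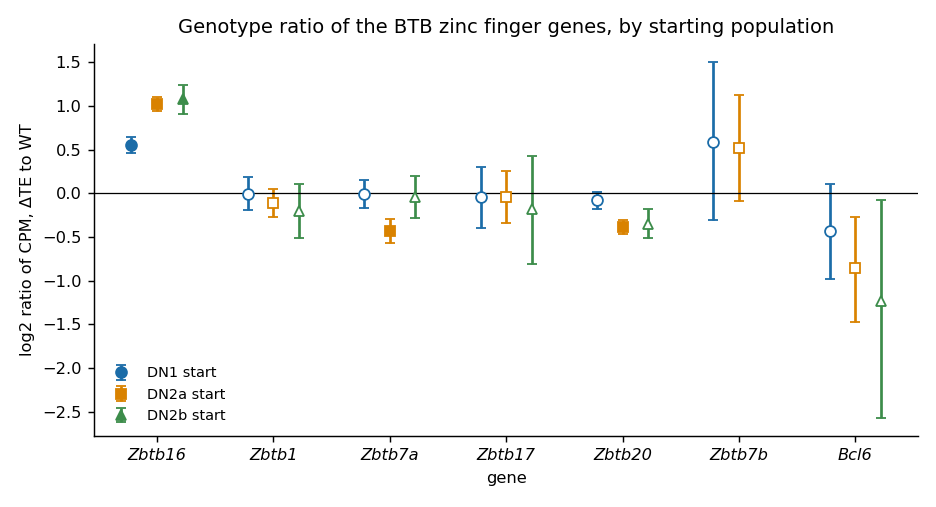
The log2 ratio of CPM in ΔTE to WT cells (y axis) for 7 genes (x axis) and 3 starting populations, with exact 95% intervals. Filled symbols met the criterion on UMIs, fold and wells, and open symbols did not. Values on fewer than 20 UMIs are left out. Zbtb16 lies at 0.56, 1.02 and 1.07, and no other gene has a filled symbol above 0.

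Zbtb20, a repressor best known in the brain, liver and plasma cells, was read in DN1-derived cells at 286 CPM (272 to 300) for WT against 270 CPM (257 to 283) for ΔTE. DN2a-derived cells gave 401 CPM (388 to 414) for WT against 306 CPM (293 to 320) for ΔTE, and DN2b-derived cells 328 CPM (307 to 350) against 257 CPM (234 to 283). For the DN2a start all 3 ΔTE wells, at 295 to 315 CPM, lay below the WT wells, at 396 to 409 CPM. The ratio was −0.39 (−0.47 to −0.31), −0.29 (−0.38 to −0.20) with the stroma group left out, −0.26 with TMM, where it no longer passed 1.2-fold, and −0.15 with no mitochondrial limit. For the DN2b start the ratio was −0.35 (−0.52 to −0.18), and the ΔTE wells, at 193 to 313 CPM, overlapped the WT wells. Zbtb20 was counted as lower there without well A07 (WT) or B06 (ΔTE), or with cells thinned to 300 UMIs. For the DN1 start it was −0.08 (−0.18 to 0.02).

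Zbtb20 was also the member with the highest stromal signal. It was at 812 CPM (774 to 851) in stroma marker cells against 292 CPM (285 to 299) in cells of no class, and it was higher in 6 of 6 libraries (1.35 ± 0.24 on the log2(CPM + 10) scale, exact sign-flip permutation p = 0.03125, adjusted 0.0729). Stroma marker cells made up 9.28% of the WT DN2a library and 5.99% of the ΔTE DN2a library. In cells of no class the Zbtb20 ratio was −0.31 (−0.41 to −0.21) in DN2a-derived and −0.24 (−0.43 to −0.051) in DN2b-derived cells. The gene spans 9 other annotated genes, 4 of them on the opposite strand, and how reads were assigned among them is not given in the sources used here.

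Zbtb7a encodes LRF, which restrains Notch-driven T-cell fate in haematopoietic progenitors. It was at 112, 140 and 139 CPM in WT cells of the DN1, DN2a and DN2b starts and at 111, 103 and 135 CPM in ΔTE cells. For the DN2a start the ΔTE wells, at 92.1 to 111 CPM, lay below the WT wells, at 135 to 145 CPM. That ratio was −0.43 (−0.57 to −0.30), −0.31 without mitochondrial UMIs in the scaling and −0.42 with the stroma group left out. The ratios for the DN1 and DN2b starts were −0.01 (−0.16 to 0.15) and −0.05 (−0.29 to 0.19). Zbtb7a was higher in stroma marker cells, at 204 CPM (185 to 225), than in cells of no class, at 114 CPM (109 to 118), in 6 of 6 libraries (exact permutation p = 0.03125, adjusted 0.0729).

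Zbtb1 is required for lymphoid development from bone marrow progenitors, and Zbtb17 encodes Miz-1, a partner of Myc that also acts in interleukin 7 signalling through repression of Socs1. Neither met the criterion in any comparison with the filters and scaling given above, but both did under some other settings. Zbtb1 was counted as lower in ΔTE cells without well B01 for DN2a, and without well A09 or with cells thinned to 300 UMIs for DN2b. It was higher in WT cells of the DN2a than of the DN1 start with no mitochondrial limit. Zbtb17 was counted as lower from the DN2b than from the DN2a start with no mitochondrial limit (both genotypes) or with at least 300 genes (ΔTE), and as higher from the WT DN2a than the WT DN1 start with thinned cells. Zbtb1 stayed between 80.4 and 92.2 CPM over the 6 libraries, with genotype ratios of 0.00 (−0.19 to 0.18), −0.11 (−0.27 to 0.05) and −0.20 (−0.51 to 0.11). Zbtb17 stayed between 21.0 and 26.1 CPM on 36 to 236 UMIs, with ratios of −0.05 (−0.39 to 0.30), −0.04 (−0.34 to 0.25) and −0.18 (−0.81 to 0.43). In stroma marker cells Zbtb1 was lower than in cells of no class, at 44.9 CPM (36.3 to 54.9) against 88.1 CPM (84.3 to 92.0), in 6 of 6 libraries (exact permutation p = 0.03125, adjusted 0.0729). Zbtb17 overlaps Spen on the opposite strand.

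Bcl6, a repressor that directs follicular helper T cells and germinal centre B cells, was sparse, with 70, 88 and 30 UMIs in WT and 51, 34 and 8 UMIs in ΔTE libraries of the DN1, DN2a and DN2b starts. Its level was 11.7, 9.73 and 11.0 CPM in WT and 8.65, 5.38 and 4.66 CPM in ΔTE cells. The ratios were −0.43 (−0.98 to 0.11), −0.85 (−1.47 to −0.27) and −1.24 (−2.57 to −0.08). The wells overlapped for each start, so Bcl6 did not meet the criterion. In the ΔTE DN2a library, well B02 held 9.96 CPM of Bcl6 against 4.07 and 2.56 CPM, and without that well Bcl6 was counted as lower, as it was for the DN1 start without well A12 of the ΔTE library. With all wells it was also counted as lower for the DN1 start without cells of 2 marker classes and for the DN2b start with no mitochondrial limit. Summed over the libraries, Bcl6 was at 30.6 CPM (16.8 to 51.4) in myeloid and 21.0 CPM (15.3 to 28.2) in stroma marker cells. In cells of no class it was at 7.71 CPM (6.62 to 8.94). Within the 4 libraries with enough UMIs, Bcl6 was higher in myeloid marker cells in 2 and lower in 2, so the myeloid excess did not hold within libraries. It was higher in stroma marker cells in 6 of 6 libraries (exact permutation p = 0.03125, adjusted 0.0729). WT stroma marker cells held 3 (DN1), 25 (DN2a) and 4 (DN2b) Bcl6 UMIs, and ΔTE ones 2, 9 and 1. The direction thus rested on few UMIs in most libraries. With at least 3 markers needed, it was the opposite in the WT DN1 library, on 1 UMI in stroma marker cells.

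Zbtb7b encodes ThPOK, which directs the CD4 lineage of T cells. It had 19, 48 and 4 UMIs in the WT and 28, 48 and 13 UMIs in the ΔTE libraries, too few to be counted in any comparison. Of its 160 UMIs, 60 lay in stroma marker cells. It was at 28.6 CPM (21.9 to 36.9) in stroma and 32.8 CPM (18.4 to 54.2) in myeloid marker cells against 2.76 CPM (2.12 to 3.53) in cells of no class, and had 0 UMIs in T marker cells, which allows up to 10.1 CPM (3 UMIs). Outside the stroma group it had 16, 16 and 2 UMIs in WT and 27, 26 and 13 UMIs in ΔTE cells. Zbtb7b overlaps the antisense gene Gm15417. Zbtb32, a repressor induced in activated lymphocytes, had 5 UMIs over all 6 libraries, 3 of them in the WT DN1 library, and no level was compared.

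Between starts the members were compared within a genotype. In WT cultures Zbtb7a and Zbtb20 were counted as higher from the DN2a than from the DN1 start, by 0.32 (0.19 to 0.46) and 0.49 (0.40 to 0.57). Stroma marker cells were 9.28% of the WT DN2a and 2.29% of the WT DN1 library, and without them the ratios were 0.24 (0.093 to 0.38) and 0.29 (0.20 to 0.38) and Zbtb7a no longer met the criterion. In that comparison 28.6% of all genes were higher and 5.99% lower, and the median gene lay at 0.14. With mitochondrial UMIs left out of the scaling 54.9% of calls were higher in place of 82.7% (55.2% with TMM), Zbtb7a no longer met the criterion and Zbtb16 was counted as lower (−0.30). Of all genes, 17.2% were higher and 14.1% lower at that scaling. In WT cultures from the DN2b against the DN2a start, Zbtb16 and Zbtb20 were counted as lower, where 2.55% of all genes were higher, 25.5% lower and the median lay at −0.18. Without mitochondrial UMIs 30.7% of calls were higher in place of 9.08% (35.4% with TMM), and no member met the criterion (0 of the 6 with enough UMIs). Of all genes, 5.94% were then higher and 13.4% lower. The Zbtb20 ratio was −0.29 (−0.40 to −0.18), and −0.094 (−0.21 to 0.021) with the stroma group left out, where Zbtb20 no longer met the criterion. Stroma marker cells were 9.28% of the WT DN2a and 3.28% of the WT DN2b library.

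In ΔTE cultures no member met the criterion between the DN2a and DN1 starts (0 of the 5 with enough UMIs), where 7.48% of all genes were higher and 8.47% lower. Without well B02 of the DN2a library Zbtb16 was counted as higher there, with a log2 ratio of 0.51. From the DN2b against the DN2a start, 3.89% of all genes were higher and 7.32% lower. Without mitochondrial UMIs 48.5% of those calls were higher in place of 34.7% (51.9% with TMM). Zbtb7a was counted as higher there, by 0.38 (0.16 to 0.60).

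Another 40 genes of the family formed a list for comparison, all present in the files. For the DN1 start, 26 had enough UMIs, of which 2 were higher (Zbtb21 and Zbtb33) and 2 lower (Zbtb24 and Zbtb38) in ΔTE cells, where 4.45% and 4.17% of all genes were. For the DN2a start, 31 had enough UMIs and 4 were lower (Zbtb8a, Zbtb34, Zbtb38 and Hic2), a share near the 11.5% of all genes that were lower. For the DN2b start, 12 had enough UMIs and 1 was lower (Zbtb38), where 7.62% of all genes were. The list medians were 0.05, −0.07 and −0.04, beside 0.00, −0.14 and −0.01 over all genes.

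Zbtb38, a methyl-CpG binding repressor, was the only gene of that list counted in the same direction from all 3 starts. DN1-derived cells gave 93.3 CPM (85.7 to 101) for WT against 64.3 CPM (57.9 to 71.1) for ΔTE. DN2a-derived cells gave 111 CPM (104 to 118) against 54.9 CPM (49.3 to 61.0), and DN2b-derived cells 104 CPM (92.2 to 117) against 50.7 CPM (40.6 to 62.5). WT wells lay between 85.4 and 116 CPM and ΔTE wells between 35.9 and 68.1 CPM, with no overlap over any start. The ratios were −0.54 (−0.73 to −0.35), −1.01 (−1.19 to −0.84) and −1.04 (−1.40 to −0.69), and −0.57, −0.96 and −1.07 with the stroma group left out. With a limit of 20% mitochondrial UMIs the criterion was no longer met for the DN1 and DN2b starts, at ratios of −0.49 and −1.15. An antisense gene, A930006L05Rik, overlaps Zbtb38.

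**Figure D5:**
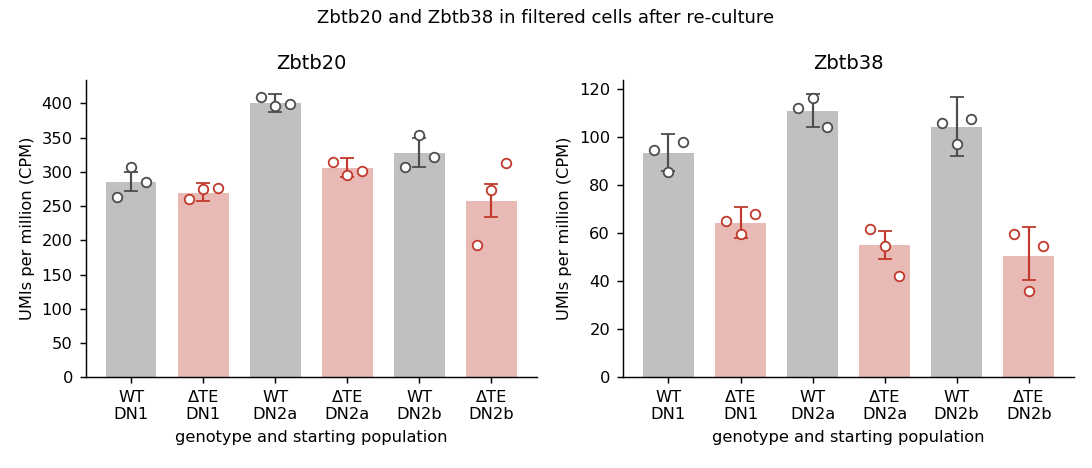
Level in CPM (y axis) of Zbtb20 (left) and Zbtb38 (right) for each genotype and starting population (x axis). Bars are the summed library, error bars are exact Poisson 95% intervals and open circles are the 3 wells. Every ΔTE well of Zbtb38 lies below every WT well, while Zbtb20 wells are apart only for the DN2a start.

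Genes that act with or against these factors were read from a second list of 12, of which 11 had enough UMIs from each start. Id2, an inhibitor of E proteins that ILC precursors need, was higher in ΔTE cells from each start, at 43.1 against 30.2 CPM (DN1), 64.4 against 37.9 CPM (DN2a) and 199 against 63.3 CPM (DN2b). Rora, a factor of group 2 ILCs, was higher for the DN2b start, at 184 against 131 CPM. For the DN2a start Rora was at 76.6 against 68.5 CPM with overlapping wells. With the stroma group left out it was at 65.5 against 42.1 CPM there, a log2 ratio of 0.64 (0.42 to 0.86). That ratio was −0.04 (−0.41 to 0.33) for the DN1 and 0.55 (0.32 to 0.78) for the DN2b start. Runx3, a factor of cytotoxic and innate lymphocytes, was counted as higher only for the DN1 start, at 558 against 445 CPM. DN2a-derived cells gave 490 against 378 CPM and DN2b-derived cells 409 against 343 CPM, each with overlapping wells. With the stroma group left out, the DN1 ratio of Runx3 was 0.32 (0.24 to 0.39) on the log2 scale. Its DN2a ratio was then 0.33 (0.26 to 0.41) and its DN2b ratio 0.21 (0.071 to 0.36). Socs1, an inhibitor of cytokine signalling, was higher for the DN2b start (99.0 against 67.7 CPM). Bcl11b was lower from each start. Gfi1, a repressor, was counted as lower for the DN1 start (11.0 against 14.2 CPM), on 65 and 85 UMIs. Its ratio was −0.37 with the stroma group left out, with an interval (−0.86 to 0.12) that holds 0. Myc, Ncor1, Bcor and Cul3 did not meet the criterion between genotypes, and Prdm1, with 3 to 10 UMIs in each library, had too few to be counted. The list medians were −0.01, −0.13 and −0.03, beside 0.00, −0.14 and −0.01 over all genes. Over all genes, 4.45%, 2.07% and 6.78% were higher and 4.17%, 11.5% and 7.62% lower for the DN1, DN2a and DN2b starts. Of 3 genes that the study chose on these samples, and which are no independent evidence, Runx1 was lower from each start (−0.26, −0.38 and −0.52), and Pde4d did not meet the criterion between genotypes. Camk1d, at 0.31, 0.87 and −1.47, had overlapping wells for each start.

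The genes whose levels followed Zbtb16 most closely were ranked by Pearson correlation of log2(CPM + 10) over 31 points, each a marker group in a library with at least 20000 UMIs, among 7945 genes that are neither markers nor mitochondrial. The points share libraries and differ in depth, so the correlations are descriptions. Of these points, 6 were stroma marker cells, where Zbtb16 was low and Zbtb20 high, and their part in the ranking was not tested. Nrgn, a calmodulin-binding protein, came first with r = 0.88, followed by Clnk, an adaptor of immunoreceptor signalling (0.87), Ikzf2, the factor Helios (0.87), Cpa3, a carboxypeptidase (0.84), and Cd160, a receptor of NK cells and ILCs (0.84). Over whole libraries, Nrgn was at 229, 213 and 115 CPM in WT and at 308, 326 and 310 CPM in ΔTE cells of the DN1, DN2a and DN2b starts. Clnk was at 170, 139 and 53.8 CPM in WT and 229, 250 and 218 CPM in ΔTE cells. Ikzf2 hardly moved between libraries, from 368 to 407 CPM. Among the 4 other members with enough UMIs the correlation with Zbtb16 ran from 0.27 for Zbtb1 to −0.72 for Zbtb20.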

How the data were processed

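The authors deposited, for each library, the count of UMIs per gene and barcode from sci-RNA-seq3, not normalized and with low barcodes still present. The submitters' processing notes name mm9; the aligner and gene annotation are not given in the sources used here. Gene overlaps were read from GENCODE M21, which holds 27924 of the 28048 identifiers, and no coordinates were used. Counts were used as deposited. Barcodes with 200 genes or more, no more than 2000 UMIs and a mitochondrial share of up to 30% were taken as cells, and doublets were limited only by the UMI maximum. UMIs were summed per library, well and marker group and scaled to CPM. Intervals are exact (Poisson, conditional binomial for ratios, Clopper-Pearson for shares) at 95%. Marker groups used 60 of 63 listed markers. Genes named were the 8 members, listed family and partner genes counted between genotypes, and the 5 genes most like Zbtb16. Of the partner genes, 1 is not reported here. The members and lists were chosen with earlier results of these data known. The calls were checked on simulated counts with counting error only, so the check does not cover other spread between wells or cultures. Alternatives were 14 planned settings and 1 added. Software comprised Python 3.11.15 with numpy 2.4.6, pandas 2.3.3, scipy 1.17.1, matplotlib 3.10.9, plus R 4.3.3 with edgeR 4.0.16 for TMM.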

Additional observations from a re-analysis of the deposited data

Results flagged for a closer look

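Barcodes that the filters left out also held more Zbtb16 in ΔTE than in WT libraries, a signal outside the main measurement. Among barcodes with over 2000 UMIs, the log2 ratio was 1.35 (1.02 to 1.68) for the DN1 start, on 164 and 150 UMIs, and 0.84 (0.27 to 1.41) for the DN2b start. For the DN2a start it was 0.41 (−0.06 to 0.91), an interval that holds 0. Among barcodes with over 30% mitochondrial UMIs, DN1-derived barcodes gave 0.81 (0.65 to 0.96), DN2a-derived ones 2.23 (1.52 to 3.05) and DN2b-derived ones 1.54 (1.27 to 1.82). The DN2a value rests on 16 UMIs in 518 WT barcodes, at 54.9 CPM against 258 CPM in ΔTE barcodes. Among barcodes with at least 100 but fewer than 200 genes, DN1-derived barcodes gave 0.74 (0.52 to 0.97), DN2a-derived ones 1.16 (1.00 to 1.31) and DN2b-derived ones 1.44 (1.08 to 1.81). Zbtb20, the member with the highest stromal signal, is given here as ΔTE against WT for the DN1, DN2a and DN2b starts. Where mitochondrial UMIs passed 30% it was at 448 against 477, 499 against 587 and 408 against 528 CPM. Where UMIs passed 2000 it was at 517 against 760, 721 against 670 and 630 against 748 CPM. Among barcodes with fewer than 200 genes it was at 317 against 292, 303 against 382 and 289 against 401 CPM. The part of stroma cells in the Zbtb16 ratios of these barcodes was not tested.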

How the results depend on the processing

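Under the 14 planned settings and the 1 added, 227 of the values that answer a comparison held, 62 moved and 1 reversed, and of the single-gene values 929 held, 94 moved and 1 reversed. Zbtb16 met the criterion as higher in ΔTE cells from each start in every setting except 1.5-fold for the DN1 start. The cause of these shifts was not tested. Most counts of members under other settings have no share of all genes beside them, and these are descriptions only.

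With no mitochondrial limit, the Zbtb16 ratio of ΔTE to WT was 0.67 for DN1 and 0.83 for DN2a, and 2 members met the criterion for DN2b. Between starts, Zbtb16 was then at 0.10 (WT DN2a against DN1), −0.80 (WT DN2b against DN2a) and −0.66 (ΔTE DN2b against DN2a, with 3 members), Zbtb20 turned to 0.052 (WT DN2b against DN2a), and Zbtb16 in stroma marker cells was at −2.94. With at most 20%, Zbtb16 was at 0.89 for DN2b between genotypes. Between starts it was at −0.30 (WT DN2a against DN1), 0.12 (WT DN2b against DN2a, reversed, with 1 member), 0.19 (ΔTE DN2a against DN1) and 0.057 (ΔTE DN2b against DN2a), and in ILC or NK marker cells at 0.41.

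Scaled without mitochondrial UMIs, Zbtb16 was at 1.14 for DN2a between genotypes, −0.30 for WT DN2a against DN1 and −0.12 for WT DN2b against DN2a (0 members). TMM gave 1.15, −0.30 and −0.094 (0 members). Thinning to 300 UMIs gave 0.67 for DN1 and 1.28 for DN2b between genotypes (3 members), −0.46 for WT DN2b against DN2a and −2.74 in stroma marker cells. Without cells of 2 classes, 2 members met the criterion for DN1 and 1 (Zbtb20) for WT DN2b against DN2a. Without the stroma group, Zbtb16 was at −0.038 for WT DN2a against DN1 (1 member) and 0.39 for ΔTE DN2a against DN1, and 1 member (Zbtb16) met the criterion for WT DN2b against DN2a. That count was also 1 (Zbtb20) with at most 2000 genes. With at least 300 genes, 3 members met it for ΔTE DN2b against DN2a. At 1.5-fold, 0 members did for DN1, 1 for DN2a and 0 for each of WT DN2a against DN1, WT DN2b against DN2a and ΔTE DN2b against DN2a. Zbtb16 in ILC or NK marker cells was at 0.65 with at least 3 markers and 1.53 without the 5 most counted ones.

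Leaving out 1 well at a time gave Zbtb16 ratios between genotypes of 0.53 to 0.57 (DN1), 0.79 to 1.22 (DN2a, the highest without well B02) and 0.93 to 1.32 (DN2b). Between starts the ratios were 0.080 to 0.51 (ΔTE DN2a against DN1), −0.41 to 0.038 (ΔTE DN2b against DN2a), −0.18 to −0.13 (WT DN2a against DN1) and −0.34 to −0.19 (WT DN2b against DN2a). The members that met the criterion numbered 1 to 2 for DN1, 3 to 4 for DN2a and 1 to 2 for DN2b. Between starts they numbered 2 to 3 (WT DN2a against DN1), 0 to 2 (WT DN2b against DN2a), 0 to 1 (ΔTE DN2a against DN1) and 1 to 2 (ΔTE DN2b against DN2a). With 1 well fewer, wells that do not overlap are easier to get, and the share of all genes without that well is not given. The labels give no replicate numbers, and pairing the genotypes by start leaves 3 differences, for which the smallest exact two-sided permutation p is 0.25. Depth limits Zbtb32, Zbtb7b and Bcl6, which had 5, 160 and 281 UMIs in all.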

Other observations

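The 222 cells that remained in the ILC or NK group without its 5 most counted markers, a choice made after seeing the data, lay mostly in ΔTE libraries. They made up 0.728% (0.627 to 0.840) of ΔTE cells and 0.107% (0.0760 to 0.147) of WT cells, with 184 and 38 cells. Zbtb16 was at 1071 CPM (884 to 1286) in the ΔTE and 773 CPM (442 to 1256) in the WT cells of that group, on 115 and 16 UMIs, and these intervals overlapped. All 8 Zbtb7b UMIs of the group were in ΔTE cells, at 74.5 CPM (32.2 to 147). The 0 UMIs in WT cells allow up to 145 CPM (3 UMIs), which lies below the exact 95% limit.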
